A study of Mus musculus with 6 samples.

Results

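The genes described here encode the subunits of the proteasome and the proteins that activate or assemble it. Members were all probe sets on the array annotated to exactly 1 gene symbol that begins with Psma, Psmb, Psmc, Psmd, Psme, Psmf or Psmg and a digit, with Psmb8, Psmb9 and Psmb10 left out. This gave 46 genes of 18194 measured, read by 99 of the 45101 probe sets on the array, 34958 of which carried 1 symbol. The rule itself uses no measured value, although it was set with earlier results of these data known. Every member was tested without a filter on low values. The symbols Psmc3ip and Psme3ip1 also meet the rule, although they name proteins that bind a subunit and are not subunits themselves, so 96 probe sets of 44 genes remain when they are set aside. Psme2, the beta subunit of the PA28 activator, shares its probe set with a copy of the gene and was therefore outside the rule.

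Liver RNA came from 3 B6.Alb/cre,Pdss2loxP/loxP mutants, aged 176, 178 and 224 days, and from 3 B6.Pdss2loxP/loxP controls, aged 209, 213 and 140 days, each on 1 Affymetrix mouse array. All were male, both groups carry the loxP-flanked Pdss2 alleles, and only the mutants carry cre recombinase under the albumin promoter, which removes the flanked part of Pdss2 in hepatocytes. Its removal in other cells of the liver was not measured here. The product of Pdss2 is needed to make the side chain of coenzyme Q (CoQ), and the comparison asks how liver transcripts differ when hepatocytes lack it. The genotypes were caged apart, and food was withdrawn 3 h before the animals were killed.

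The proteasome is the barrel-shaped protease that degrades ubiquitin-tagged proteins in the cytosol and nucleus. Its core particle stacks rings of alpha subunits, which gate the entry, on rings of beta subunits, some of which carry the proteolytic sites. A regulatory particle sits on the core, with a base of ATPases that unfold the substrate and a lid that removes the ubiquitin chain, and other activators can take its place. When proteasome activity is short, the transcription factor NRF1, encoded by Nfe2l1, is known to raise many subunit genes together through antioxidant response elements in their promoters.

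Promoter sequence was available for 36 of the 44 subunit, activator and chaperone genes in RefSeq (GRCm38.p6), as 38 windows of the 250 bases that precede a transcription start. On either strand the antioxidant response element TGACNNNGC occurred in 5 of these windows (13.2%) and in 10.2% of 32851 windows of the same length over all genes. The CCAAT box, searched as CCAAT, occurred in 34.2% of member windows and 33.8% of all, and the GC box, searched as GGGCGG, in 52.6% and 32.7%. The 5 genes whose window held the antioxidant response element were Psmb5, Psmb6, Psmc6, Psmd9 and Psmd12. The windows of Psmb5 and Psmb6, which encode catalytic subunits, of Psmc6, an ATPase whose element lies on the opposite strand, and of Psmb3, which fell in the mutants as described below and holds 2 CCAAT boxes but no such element, are given here 5′ to 3′ in the direction of transcription, with the matched letters in capitals. They span chr14:54617996-54618245 (minus strand), chr11:70525107-70525356 (plus), chr14:45329574-45329823 (plus) and chr11:97703184-97703433 (plus).
Psmb5: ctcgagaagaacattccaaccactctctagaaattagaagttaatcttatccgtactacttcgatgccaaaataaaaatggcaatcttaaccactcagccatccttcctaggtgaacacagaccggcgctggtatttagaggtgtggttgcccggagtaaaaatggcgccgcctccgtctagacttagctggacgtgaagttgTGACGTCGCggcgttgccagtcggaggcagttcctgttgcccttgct
Psmb6: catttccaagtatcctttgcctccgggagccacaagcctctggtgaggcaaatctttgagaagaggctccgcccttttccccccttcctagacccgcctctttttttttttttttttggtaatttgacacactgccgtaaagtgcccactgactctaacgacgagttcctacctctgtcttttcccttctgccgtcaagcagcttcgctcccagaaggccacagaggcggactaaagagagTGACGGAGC
Psmc6: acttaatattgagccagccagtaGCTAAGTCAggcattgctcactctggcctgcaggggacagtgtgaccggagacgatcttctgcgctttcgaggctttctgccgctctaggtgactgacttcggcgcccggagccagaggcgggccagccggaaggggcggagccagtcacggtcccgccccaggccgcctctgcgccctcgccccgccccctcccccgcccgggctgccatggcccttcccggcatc
Psmb3: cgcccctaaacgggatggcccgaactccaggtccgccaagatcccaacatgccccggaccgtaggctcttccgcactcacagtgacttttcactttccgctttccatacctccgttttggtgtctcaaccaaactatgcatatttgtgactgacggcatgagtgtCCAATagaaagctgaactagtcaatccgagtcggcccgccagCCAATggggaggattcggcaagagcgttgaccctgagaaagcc

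Where several probe sets read a gene, the one whose mean across all arrays was highest is called the brightest. On that probe set the targeted gene Pdss2 had log2 values of 6.94, 6.88 and 7.05 in the mutants, numbered 1 to 3 and always given in that order, and of 7.46, 7.47 and 7.56 in the controls, ordered likewise. All 3 mutants lay below all 3 controls, by a mean difference of -0.54 ± 0.18 (SE) that did not pass the adjusted test (limma, adjusted p = 0.104), and its other probe sets differed by 0.40 and 0.35 with overlapping groups. The positions of these probe sets relative to the removed exon were not analysed here. The array medians were 6.12 to 6.24 in mutants and 5.92 to 6.12 in controls, and the median difference over all probe sets was 0.16, so each difference below is to be read against that shift. The 3′ minus 5′ difference of the Gapdh control probe sets, a measure of RNA quality, was 0.45, -1.06 and -1.78 in mutants and 2.31, 2.02 and 2.30 in controls (exact two-sided permutation p = 0.1, the smallest that 3 mice against 3 allow), while that of Actb overlapped between the groups (p = 0.8). The BioB hybridization control read 1.81 higher in mutants, again without overlap (exact p = 0.1). The part of these array differences in the results below was not tested.

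Most proteasome probe sets had lower values in the mutants, but few passed the test across all genes. Of the 99 probe sets, 60 had a negative and 39 a positive difference, with a median of -0.37. Past a Benjamini-Hochberg adjusted p of 0.05 from limma, over all 34958 probe sets with 1 symbol, 4 fell and 1 rose, beside 3.79 percent of all probe sets called (1.68 percent lower and 2.11 percent higher). The probe sets that fell read Psmb3, Psma5, Psmc6 and Psmd6, and the one that rose read Psma7. On the brightest probe set of each gene 3 genes fell (Psma5, Psmb3 and Psmc6) and none rose, beside 4.59 percent of all genes called (1.92 percent lower and 2.68 percent higher). At an unadjusted p under 0.05, 36 member probe sets were lower and 14 higher, beside 11.3 and 15.6 percent of all probe sets. All differences are mutant minus control, and this direction is the reverse of the one the study gives for its proteasome gene set. The study's direction came from gene set enrichment analysis of a set curated from KEGG. That is another measure, and its genes need not be those of the rule used here. Groups are as labelled, and the labels were not tested. The brightest Pdss2 probe set was lower in every array labelled mutant but did not pass (limma, adjusted p = 0.104). The other Pdss2 probe sets differed by 0.40 and 0.35 with overlapping groups. Apart from the arrays, the study reports a substantial loss of Pdss2 transcript by quantitative PCR in liver of mutants of this genotype, and a loss of liver CoQ.

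Counted without regard to the test, all 3 mutants lay below all 3 controls in 30 of the 99 probe sets and above them in 16, beside 12.5 and 20.8 percent of all probe sets. On the brightest probe set of each gene, 21 of 46 genes lay wholly below and 5 wholly above, beside 14.1 and 23.3 percent of 18194 genes, and the median difference was -0.50 against 0.17 for all genes. Brighter probe sets were lower in mutants across the whole array, however. Among the 41 member probe sets with a mean of at least 8, 23 lay wholly below, with a median of -0.73, and 4 lay wholly above. Among all probe sets that bright, 31.8 percent lay wholly below and 19.3 percent wholly above, with a median of -0.20. The 58 dimmer members had a median of -0.02, against 0.18 for all dimmer probe sets. Of these members 7 lay wholly below and 12 wholly above, beside 9.69 and 21.1 percent of all dimmer probe sets, shares close to the members' own.

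Calls moved across the whole array when a mouse was left out. Without mutant 1, 33 member probe sets were called by limma, 30 of them lower, beside 11.4 percent of all probe sets. Without any other single mouse no member was called, beside at most 0.00858 percent of all probe sets, and 32 to 41 members had an unadjusted p under 0.05, among 6312 to 9746 probe sets in all. The differences themselves moved less, as for Psmb3, which ran from -1.52 to -1.31 over these fits. Fewer cells of a type and less RNA per cell cannot be told apart in whole liver.

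**Figure D1:**
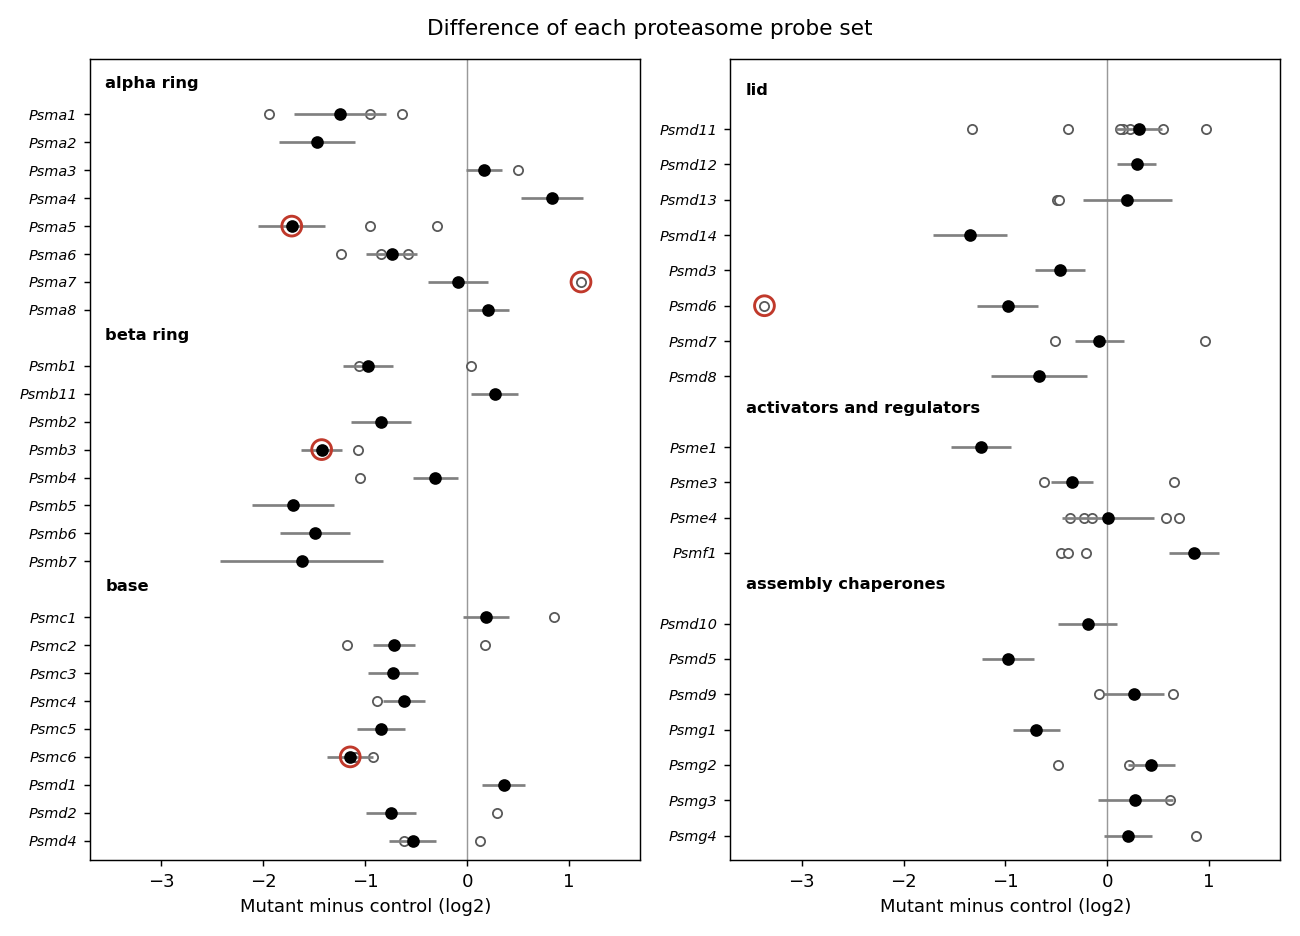
Mutant minus control difference (log2, horizontal axis) of every subunit, activator and chaperone probe set, by gene. Filled points with bars are the brightest probe set of the gene and its SE, open points are its other probe sets, and red rings mark the 5 probe sets past an adjusted p of 0.05 (limma); 7 of 8 beta ring genes and 7 of 9 base genes lie left of 0 on their brightest probe set.

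The alpha ring, which forms the gate of the core, was read by 18 probe sets of 8 genes, 13 with a negative difference, 1 that fell and 1 that rose. Psma5, the alpha5 subunit, had log2 values of 9.27, 8.07 and 8.16 in the mutants and 10.10, 10.22 and 10.35 in the controls on its brightest probe set. Mutant 1 lay nearest to the controls, and the groups did not overlap. It fell by 1.72 ± 0.33 (SE) on the log2 scale, to 30.3% of the control level (limma, adjusted p = 0.0422). Its other probe sets differed by -0.96 and -0.29, both with overlapping groups.

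Psma7, the alpha4 subunit, was the single gene with a probe set that rose. On its dimmer probe set the mutants had 8.94, 9.17 and 8.67 and the controls 7.90, 7.64 and 7.88. All mutants lay above all controls, by 1.12 ± 0.21 (SE; limma, adjusted p = 0.0402), or 0.96 with an adjusted p of 0.0553 once the array medians were centred. The brighter probe set of the same gene had 9.27, 8.85 and 8.18 in mutants and 9.04, 8.83 and 8.69 in controls. Its groups overlapped, and the difference was -0.09 ± 0.29 (adjusted p = 0.879), so the rise was not shared by both readings of Psma7.

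Psma2, the alpha2 subunit, is read by 1 probe set, with 8.55, 7.31 and 7.09 in mutants and 9.26, 9.03 and 9.10 in controls. The groups did not overlap, but the difference of -1.48 ± 0.37 had an adjusted p of 0.0628 (limma). Psma6, the alpha1 subunit, had 10.003, 9.79 and 9.16 in mutants and 10.48, 10.46 and 10.25 in controls, again without overlap (difference -0.74, adjusted p = 0.115). All 4 of its probe sets had a negative difference, from -1.24 to -0.58, as did the 4 of Psma1, the alpha6 subunit, from -1.95 to -0.64. Psma4, the alpha3 subunit, differed in the other direction by 0.84 without overlap (adjusted p = 0.132), and Psma3, the alpha7 subunit, by 0.16. Psma8, an alpha4 variant known from testis, differed by 0.21 with overlapping groups.

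The beta ring, where proteins are cut, had 10 of 12 probe sets and 7 of 8 genes with negative differences, and its median of -1.20 over the brightest probe sets was the lowest of the 6 groups of members. Wholly below the controls were 5 genes, and none was wholly above, beside 14.1 and 23.3 percent of all genes. Among all genes with a mean of at least 8 on the brightest probe set, these shares were 30.7 and 21.3 percent. Psmb3, the noncatalytic beta3 subunit, had 9.91, 9.79 and 9.48 in mutants and 11.24, 11.24 and 10.98 in controls on its brightest probe set. The mutants lay close together and well below the controls. It fell by 1.43 ± 0.20 (SE), to 37.2% of the control level (limma, adjusted p = 0.029). Its other probe set differed by -1.07 with overlapping groups (adjusted p = 0.136).

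The catalytic subunits had large differences and wide spreads among mutants. Psmb5, the chymotrypsin-like beta5 subunit and the main target of proteasome inhibitors, had 8.89, 7.76 and 7.15 in mutants and 9.65, 9.60 and 9.69 in controls. The controls lay within a narrow range that no mutant reached. The difference was -1.71 ± 0.40 (95% interval -2.65 to -0.78) with an adjusted p of 0.0565 (limma), just outside the threshold, and 0.042 in a fit of 1 probe set per gene. Psmb6, the caspase-like beta1 subunit, had 9.15, 8.24 and 7.72 in mutants and 9.88, 9.76 and 9.95 in controls. Here too the groups did not overlap, with a difference of -1.49 ± 0.35 (95% interval -2.30 to -0.69; adjusted p = 0.0554, and 0.0409 with 1 probe set per gene).

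Psmb7, the trypsin-like beta2 subunit, had 9.23, 6.40 and 5.79 in mutants and 8.47, 8.53 and 9.29 in controls. Mutant 1 lay within the range of the controls and the other mutants far below it. The difference of -1.62 ± 0.80 (95% interval -3.48 to 0.23) did not pass (limma, adjusted p = 0.236). Of the other beta genes, Psmb1 and Psmb2, the beta6 and beta4 subunits, differed by -0.97 and -0.84 without overlap, at adjusted p of 0.0643 and 0.117. Psmb4, the beta7 subunit, differed by -0.31 and -1.05 on its probe sets, both with overlap, and Psmb11, a beta5 variant known from thymus, by 0.27.

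**Figure D2:**
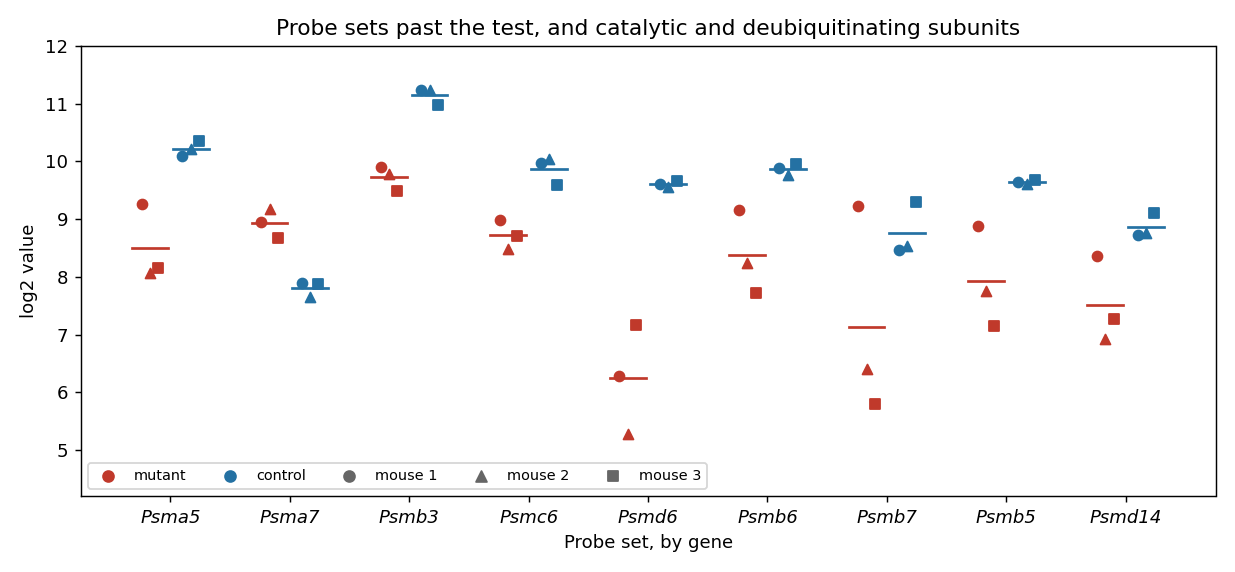
Log2 value (vertical axis) in each mouse of the 5 probe sets past the adjusted p and of the catalytic subunits and the deubiquitinase Psmd14. Red symbols are mutants, blue symbols controls, the shape gives the mouse number and the lines are group means of 3 mice; Psma7 is the single gene with all mutants above the controls, and only in Psmb7 do the groups overlap.

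The immune counterparts of the catalytic subunits, which replace them in the immunoproteasome and lie outside the rule, had differences between -0.18 and 0.12 on the brightest probe set of each, which is used in this paragraph unless stated. Psmb9, the counterpart of Psmb6, had 6.77, 6.72 and 6.60 in mutants and 6.97, 6.41 and 6.79 in controls, a difference of -0.03. Psmb10, the counterpart of Psmb7, had 8.32, 8.27 and 8.03 against 8.36, 8.38 and 8.41, a difference of -0.18. Psmb8, the counterpart of Psmb5, had 7.42, 6.77 and 6.61 against 7.21, 6.36 and 6.86, a difference of 0.12, and its other probe set differed by -0.48 (adjusted p = 0.345). Of the brightest probe sets only Psmb10 was without overlap, and none passed the test (limma, adjusted p from 0.579 to 0.949). The difference between the constitutive and the immune subunit was -1.46 for Psmb6 and Psmb9, -1.45 for Psmb7 and Psmb10 and -1.83 for Psmb5 and Psmb8. By exact two-sided permutation over the mice these 3 comparisons had p of 0.1, 0.4 and 0.1, and 0.15, 0.4 and 0.15 after Benjamini-Hochberg adjustment, in a design that cannot reach 0.05.

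The base of the regulatory particle, made of the ATPases Psmc1 to Psmc6 with the scaffolds Psmd1 and Psmd2 and the ubiquitin receptor Psmd4, was read by 18 probe sets. Of these 11 lay wholly below the controls and none wholly above, beside 12.5 and 20.8 percent of all probe sets. Among all probe sets with a mean of at least 8, these shares were 31.8 and 19.3 percent. Psmc6, the ATPase Rpt4, had 8.98, 8.49 and 8.70 in mutants and 9.97, 10.05 and 9.59 in controls on its brightest probe set. The groups did not overlap. It fell by 1.15 ± 0.22 (SE), to 45.2% of the control level (limma, adjusted p = 0.043), or by 1.04 with an adjusted p of 0.0524 after quantile normalization. Its other probe sets differed by -0.93 and -1.10, so all 3 readings of Psmc6 pointed the same way.

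Psmc5, the ATPase Rpt6, had 7.72, 7.05 and 7.05 in mutants and 8.10, 8.02 and 8.23 in controls, without overlap (difference -0.85, adjusted p = 0.0772). Psmc2, the ATPase Rpt1, had 10.003, 9.68 and 9.49 against 10.46, 10.33 and 10.53, also without overlap (difference -0.71, adjusted p = 0.0813). Psmc3, Psmc4, Psmd2 and Psmd4 lay wholly below the controls as well, with differences from -0.75 to -0.53 and adjusted p from 0.104 to 0.182. The second probe set of Psmc4 came nearest to the threshold among them (difference -0.88, adjusted p = 0.0517). Psmc1 and Psmd1 differed by 0.19 and 0.36 on their brightest probe sets, with overlapping groups.

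The lid was less uniform by probe set, with 10 positive and 11 negative differences over 21 probe sets, 6 of the positive ones from Psmd11. On the brightest probe set 5 of its 8 genes had negative differences. Psmd6, the lid subunit Rpn7, had 6.29, 5.27 and 7.17 in mutants and 9.61, 9.56 and 9.66 in controls on the dimmer of its probe sets. No mutant came near the controls. It fell by 3.37 ± 0.43 (SE), to 9.7% of the control level (limma, adjusted p = 0.0282), which was the largest difference among the 99 probe sets. The brighter probe set of Psmd6 had 8.66, 7.62 and 7.75 in mutants and 8.94, 8.85 and 9.18 in controls. It too was without overlap, but the difference was -0.98 ± 0.30 with an adjusted p of 0.091, so the readings of Psmd6 shared a direction and differed in size.

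Psmd14, the deubiquitinase Rpn11 that cuts the ubiquitin chain from the substrate, had 8.36, 6.93 and 7.27 in mutants and 8.73, 8.75 and 9.11 in controls. The groups did not overlap, and the difference was -1.35 ± 0.36 (95% interval -2.19 to -0.51; adjusted p = 0.0715, limma). Its partner in the lid, Psmd7, was read by 3 probe sets at -0.51, -0.08 and 0.96. Psmd3, the subunit Rpn3, had 8.02, 8.37 and 7.76 in mutants and 8.46, 8.24 and 8.84 in controls, with overlap (difference -0.47, adjusted p = 0.269). Psmd8 differed by -0.67 and Psmd12 by 0.29, neither past the test. Psmd11, the subunit Rpn6, had 8 probe sets from -1.32 to 0.97, of which 6 were positive.

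Activators and regulators were read by 14 probe sets of 4 genes, and none passed the test. Psme1, the alpha subunit of the PA28 activator that is known to respond to interferon, had 8.64, 7.61 and 7.73 in mutants and 9.19, 9.16 and 9.35 in controls. The groups did not overlap, with a difference of -1.24 ± 0.29 and an adjusted p of 0.0564 (limma; 0.0414 with 1 probe set per gene). Psme3, the nuclear activator PA28 gamma, had 7.89, 8.04 and 7.56 against 8.11, 8.32 and 8.10, without overlap (difference -0.35, adjusted p = 0.32). Psmf1, the regulator PI31, had 7.46, 8.18 and 7.44 against 6.76, 6.89 and 6.88. All its mutants lay above the controls (difference 0.85, adjusted p = 0.0818), while its other 3 probe sets differed by -0.21, -0.39 and -0.45. The 6 probe sets of Psme4, the activator PA200, ran from -0.37 to 0.70.

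Assembly chaperones, which help to build the core or the base and are absent from the finished particle, showed no shared direction, with 8 positive and 5 negative differences over 13 probe sets and none past the test. Psmd5, a chaperone of the base, had 7.33, 6.58 and 6.81 in mutants and 7.63, 7.93 and 8.09 in controls. The groups did not overlap (difference -0.97, adjusted p = 0.0662, limma). Psmg1, which starts the alpha ring together with Psmg2, had 8.03, 7.50 and 7.32 against 8.29, 8.35 and 8.28, without overlap (difference -0.70, adjusted p = 0.108). Psmg2 had 7.73, 7.85 and 7.28 against 7.01, 7.08 and 7.46, with overlap (difference 0.43, adjusted p = 0.276). The other probe sets of Psmg2 differed by 0.21 and -0.48, so its readings had no shared sign. The group medians of the chaperones (0.20) and of the activators (-0.17) changed sign when single mice were left out, to -0.055 without mutant 2 and -0.068 without control 3 for the chaperones and to 0.12 without mutant 3 for the activators.

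The probe sets of a gene often differed among themselves. Of the 25 subunit, activator and chaperone genes with more than 1 probe set, 8 had negative differences on every probe set, 4 had positive differences on every one, and 13 had both signs. By their names, 5 member probe sets (suffix _s_at) and 8 others (suffix _x_at) hold probes that can match further transcripts, among them the called probe set of Psmc6. The median distance between the highest and the lowest difference of a gene was 0.91. Genes with every probe set negative were Psma1, Psma5, Psma6, Psmb3, Psmb4, Psmc4, Psmc6 and Psmd6, of which all but Psmd6 belong to the core or the base.

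**Figure D3:**
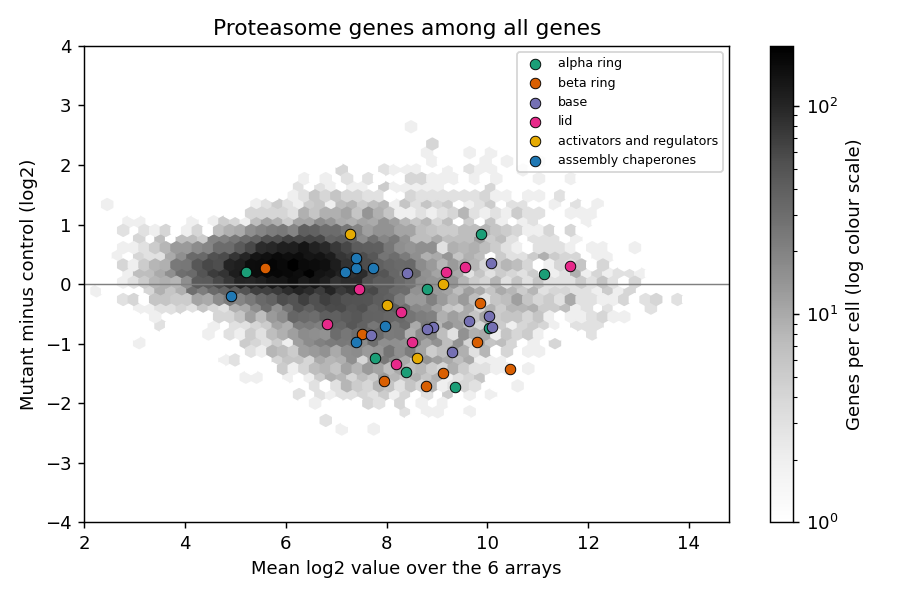
Mutant minus control difference (log2, vertical axis) against the mean log2 value over the 6 arrays (horizontal axis), for the brightest probe set of each of 18194 genes in grey (shading on a log scale, 3 genes beyond the vertical axis) and of the proteasome genes in colour by group. Genes with a mean of at least 8 lie lower as a whole, and most proteasome genes are among them or just below that level.

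The mice differed in how far the proteasome genes moved. Each value was taken relative to the mean of its gene over the 6 arrays, on the brightest probe set, and the median over genes was formed for each mouse. Over all 46 members mutants 1 to 3 had medians of 0.04, -0.24 and -0.59, and the controls had 0.24, 0.22 and 0.31. In the beta ring it was 0.02, -0.55 and -0.96 against 0.54, 0.52 and 0.69, and in the base 0.02, -0.40 and -0.61 against 0.37, 0.24 and 0.39. Thus mutant 1 lay nearest to the controls and mutant 3, the oldest animal at 224 days, farthest from them. All genes together had medians of 0.05, 0.15 and 0.02 in mutants and -0.19, -0.08 and 0.05 in controls, without that order.

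The lid had medians of -0.03, -0.11 and -0.27 in mutants and 0.20, 0.09 and 0.25 in controls, while the groups overlapped in the alpha ring, the activators and the chaperones. Mutant 1 had the highest value of the 3 mutants in 26 of the 46 genes, beside 31.1 percent of all genes, and mutant 3 the lowest in 29, beside 35.5 percent. The mutants were more spread than the controls in 42 of the 46 genes, beside 60.7 percent of all genes, with a median SD of 0.39 among mutants and 0.16 among controls. Genes lower in mutants generally shared the place of mutant 1 and the wider spread. Of the 2560 genes on the array that lay wholly below the controls, mutant 1 was the highest mutant in 76.8 percent. The mutants were more spread in 83.4 percent of them, and for the 21 such members these shares were 90.5 and 100 percent. Mutant 3 was the lowest mutant in 71.4 percent of those members but in 40.3 percent of the 2560 genes, where mutant 2 was lowest in 1376. The 3′ minus 5′ difference of Gapdh was likewise nearest to the controls in mutant 1 and farthest in mutant 3, and its part in the order of the mice was not tested.

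**Figure D4:**
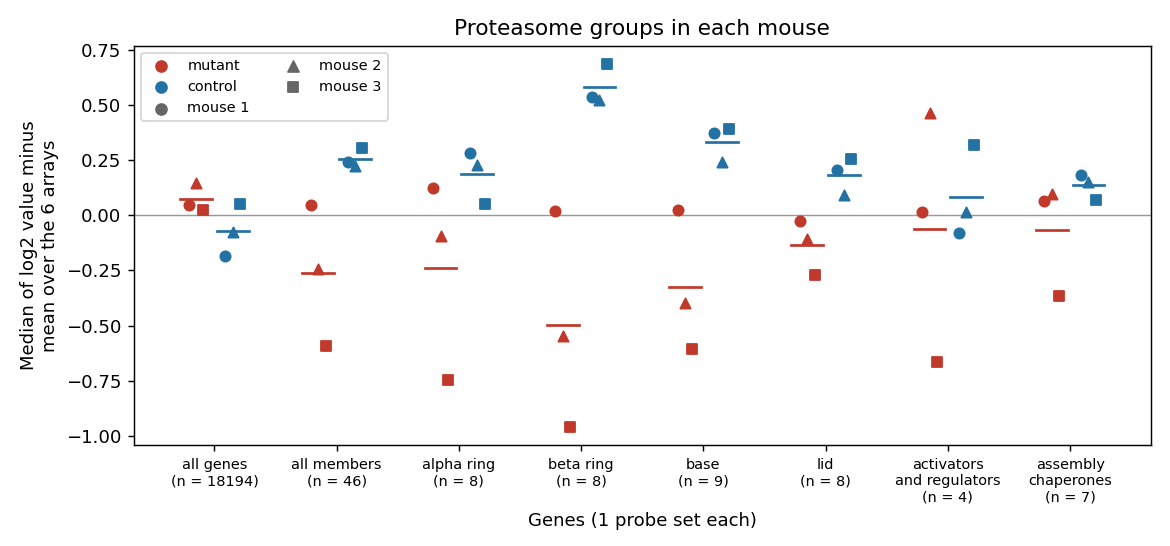
Median over genes (1 brightest probe set each) of the log2 value minus its mean over the 6 arrays (vertical axis), for all genes, all proteasome members and each group of members. Red symbols are mutants, blue symbols controls, the shape gives the mouse number and the lines are means of 3 mice; in the beta ring, the base and the lid every mutant lies below every control, and mutant 3 is lowest in each.

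Beyond the members, 32 of 44 listed symbols of the ubiquitin and proteasome pathway were measured by a probe set with 1 symbol, and on the brightest probe set 2 fell and none rose, beside 1.92 percent of all genes lower and 2.68 percent higher. Rad23b, a shuttle factor that carries ubiquitin-tagged proteins to the proteasome, had 9.16, 7.54 and 7.76 in mutants and 10.08, 10.01 and 10.30 in controls. It fell by 1.98 ± 0.41 (SE; limma, adjusted p = 0.0463). Nfe2l1, which encodes NRF1, had 7.13, 6.75 and 6.69 in mutants and 7.80, 7.79 and 7.98 in controls. It fell by 1.00 ± 0.20 (adjusted p = 0.0451), and neither gene overlapped between the groups. Of the 32 genes 11 lay wholly below the controls and 3 wholly above, beside 14.1 and 23.3 percent of all genes, and their median difference was -0.17. Among all genes with a mean of at least 8 on the brightest probe set, a level that some of the 32 reach, these shares were 30.7 and 21.3 percent. Without mutant 1 the count of pathway genes called was 10, and without any other single mouse it was 0, and at an unadjusted p under 0.05 the full comparison had 11 lower and 3 higher, beside 12.3 and 17.7 percent of all genes.

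Pomp, which completes the maturation of the beta ring and is counted here with proteins outside the rule, had 9.24, 7.81 and 7.44 in mutants and 9.73, 9.51 and 10.02 in controls. The groups did not overlap, with mutant 1 again nearest to the controls (difference -1.59 ± 0.44, adjusted p = 0.0752, limma). Among the 7 measured genes of the NRF1 axis, Nfe2l1 was the one past the test. Of its other members, the oxidant sensor Keap1 differed by 1.12 (adjusted p = 0.108) and Nfe2l2, which encodes the related factor NRF2, by 0.20 (adjusted p = 0.647). Ngly1 differed by -0.81 without overlap (limma, adjusted p = 0.096) and Mafg by -0.75 with overlap (adjusted p = 0.137). Maff and Mafk differed by 0.26 and 0.22 with overlap. Of the 7 genes 4 had positive and 3 negative differences. NRF1 activity itself was not measured, and these signs do not give its direction. Of the 5 genes with an antioxidant response element in the promoter window, Psmb5, Psmb6 and Psmc6 lay wholly below the controls, Psmd12 lay above them by 0.29 and Psmd9 differed by 0.26 with overlap. Of the 31 genes whose windows lacked these letters, 15 lay wholly below, with a median of -0.53 against -1.15 for the 5. Of all genes on the array 14.1 percent lay wholly below. The part of the element in these differences was not tested.

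The brightest probe set of each gene is used in this paragraph unless stated. Of 43 measured markers of the liver's cell types 3 were called, all higher in mutants, beside 2.68 percent of all genes called higher. Of 8 measured hepatocyte markers none was called, 7 had negative differences, and their summed log2 values were 96.2 to 100.01 in mutants and 100.5 to 100.7 in controls. A dimmer probe set of the hepatocyte marker Hnf4a was called higher, by 0.86 without overlap (limma, adjusted p = 0.0498). The brightest probe set of Hnf4a differed by -0.23 and its remaining ones by 0.05 and -0.62. All 8 markers of Kupffer cells and macrophages had positive differences, with sums of 57.6 to 61.6 in mutants and 52.7 to 56.9 in controls, and none was called. Of 8 endothelial markers 2 rose, Stab1 by 1.39 and Stab2 by 1.82 (limma, adjusted p = 0.0423 and 0.0321), with sums of 65.5 to 71.4 against 61.7 to 65.6. Of 4 bile duct markers Krt19 rose by 1.08 (adjusted p = 0.0451), with sums of 25.0 to 26.6 against 23.5 to 24.1. Of the 6 stellate cell, 7 lymphocyte and 2 red blood cell markers measured none was called. The part of cell composition in the proteasome differences was not tested.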

How the data were processed

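Liver RNA of 6 mice was measured with 1 Affymetrix mouse array each, grouped by its label. Per the methods, the authors summarized the probe intensities in dChip (perfect-match model) after normalization, and deposited 1 log2 value per probe set and array. The array named in the methods is one for C. elegans, whereas the probe sets are of mouse. No detection calls came with the values, so signal over background is unknown, and precision is limited by the number of arrays. Probe sets were named from the platform annotation in GEO, where 932 carry several symbols and 9211 none. All 34958 probe sets with 1 symbol were compared in a single fit (limma 3.58.1, lmFit followed by eBayes, under R 4.3.3), with Benjamini-Hochberg adjustment over all of them and a threshold of 0.05. The code of the fit was run on simulated arrays with independent noise. These lacked the array shifts and the outlying mice of the real data, so they do not bear on the calls given here. The labels describe separate animals. For single measurements, an exact two-sided permutation test used all 20 assignments of the mice. The genes given full values follow a rule: the catalytic subunits and Psmd14, every member past the adjusted p, the 3 genes of smallest p in each of the 6 groups, Pdss2, and of the pathway Nfe2l1, Pomp, Adrm1 (not analysed here), Psmb8, Psmb9, Psmb10 and those called; other genes were named after their values were seen. Members and lists were chosen with earlier results of these data known. The settings tried were age as a covariate, a replicate block, the trend and robust options of eBayes, 1 probe set or the mean per gene, bright probe sets alone, median centring or quantile normalization of the arrays, and leaving out each mouse; leaving out mutant 2 and control 3 together, and the counts of groups without overlap under other scalings, were added after seeing the data. Promoters came from RefSeq (GRCm38.p6). Figures were drawn with matplotlib 3.10.9.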

Additional observations from a re-analysis of the deposited data

How the results depend on the processing

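The number of proteasome probe sets called (5) became 21 of 74 with bright probe sets alone (a mean at or above the median of 6.21), 8 with 1 probe set per gene, 1 with the mean of a gene's probe sets, 12 with age as a covariate (beside 18.1, 9.03, 2.76 and 7.02 percent of all probe sets or genes) and 0 without mutant 2 and control 3 together, and ranged from 0 to 33 when single mice were left out. The number of genes called on the brightest probe set (3) became 13, 8, 1, 6 and 0 under the same settings and ranged from 0 to 19. The number of other pathway genes called (2) became 0 after quantile normalization, 10 with bright probe sets alone, 6 with 1 probe set per gene, 4 with age and 0 without both mice, and ranged from 0 to 10. Fewer probe sets are tested with bright probe sets alone and with 1 per gene; other causes were not tested.

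The labels do not say that the replicate numbers pair mutants with controls. Deviations from the group means correlated at 0.14, -0.50 and -0.53 between same-numbered mice. Mutant 2 correlated at 0.63 with control 3, and mutant 3 at 0.41 and 0.40 with controls 1 and 2. Such deviations sum to 0 within a group, so the correlations depend on each other and cannot settle whether mice were paired. With the number as a replicate block, limma called 0 proteasome probe sets, 0 genes and 0 pathway genes, with 38 member probe sets at an unadjusted p under 0.05 among 6834 in all.

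All 5 called probe sets lost the call with the block and without mutant 2, mutant 3 or any control, and kept it without mutant 1. Of the 21 member probe sets that the rule for named genes gives full values, none reversed under these alternatives; other named readings were not rerun. The median of the assembly chaperones was -0.055 without mutant 2, -0.068 without control 3 and -0.052 without mutant 2 and control 3 together, and ranged up to 0.26. The lid median was -0.43 after median centring and ranged from -0.32 to -0.15 when single mice were left out, and the beta ring median from -1.32 to -0.84. The other medians kept their sign, apart from the activators. Without overlap, 30 probe sets lay below after quantile normalization and 37 after median centring, and 14 and 11 above, beside 14.5 and 16.6 percent of all probe sets below and 15.8 and 13.7 percent above.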
